A study of Mus musculus with 7 samples.

Results

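The kainate receptor genes of the mouse prefrontal cortex (PFC) are described here as the 5 subunit genes Grik1, Grik2, Grik3, Grik4 and Grik5 with the auxiliary subunit genes Neto1 and Neto2. They were found by gene name among the protein-coding genes, and all 7 were present, of 21885 protein-coding genes and 55416 genes of every type. RNA-seq was performed on PFC tissue of female C57BL/6 wild-type mice injected on both sides with an adeno-associated virus (AAV). The 3 Ctr libraries came from mice given an empty vector, the 2 Ref libraries from mice given PAXIP1-AS1 with the reference C allele, and the 2 Alt libraries from mice given the same transcript with the alternative G allele. PAXIP1-AS1 is a human long noncoding RNA, and the comparison asks whether its alleles differ in their effect on the mouse PFC. Expression was driven by the human synapsin promoter, which is active in neurons, while the tissue sequenced also held glia, vessels and neurons without virus. The transcript carried by the virus was not analysed here, and the age of the mice sequenced is not given in the sources used here.

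Kainate receptors are ion channels gated by glutamate, each built from 4 subunits. GluK1, GluK2 and GluK3, encoded by Grik1 to Grik3, are low-affinity subunits that can form channels on their own, whereas GluK4 and GluK5, encoded by Grik4 and Grik5, bind agonist with high affinity and need a low-affinity partner. NETO1 and NETO2 are membrane proteins that bind the receptors and slow their gating. In the cortex the receptors act at presynaptic and postsynaptic sites and tune transmitter release and excitability.

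Library totals ran from 16655697 counts in Alt replicate 1 to 20750857 in Ctr replicate 3. All 7 members passed the low-count filter, with 63 to 108 counts per library for Grik1 and at least 846 counts in every library for Grik2. Alt replicate 1 stood apart from the other libraries. Its gene counts deviated from the mean of the Ctr libraries by 0.23 on the log2 scale per doubling of gene length. The value was 0.08 in Alt replicate 2 and -0.04 to 0.04 in the other 5 libraries, which include Ctr itself. The chi-square per degree of freedom between the Alt libraries was 58.0, against 18.6 to 25.04 between the libraries of Ctr or Ref. Values without Alt replicate 1 are given beside the results it moved most. The libraries carried the labelled tissue's markers, with a summed level of 5 glutamatergic neuron genes between 712 and 843 FPKM, while 4 choroid plexus genes summed to at most 1.06 FPKM and 4 olfactory bulb genes to at most 3.83 FPKM. The 6 striatum markers summed to 17.1 to 26.0 FPKM in 6 libraries and to 36.5 FPKM in Ref replicate 1.

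Per length of transcript, Grik5 was by far the most abundant member. Its FPKM (fragments per kilobase of gene length and per library total) was 63.6, 53.5 and 62.7 in the Ctr libraries, 67.5 and 53.9 in Ref, and 62.7 and 57.6 in Alt. Neto1 came next, at 17.9 ± 1.83 FPKM (SD, n = 3) in Ctr, followed by Neto2 at 14.8 ± 1.66 and Grik3 at 11.1 ± 1.6. Grik4 at 4.19 ± 0.70 and Grik2 at 4.15 ± 0.74 were nearly level, and Grik1 was the lowest at 0.76 ± 0.05. The mean level of Grik5 in Ctr was 3.34 times that of Neto1, and the values of these genes did not overlap over the 7 libraries. The same held for Grik3 over Grik4, at 2.66 times, and for Grik2 over Grik1, at 5.49 times. The neighbours Neto1 and Neto2, Neto2 and Grik3, and Grik4 and Grik2 overlapped over the libraries, although Neto1 was above Neto2 within each of the 7 libraries.

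Among the transcripts of the 5 subunit genes, Grik5 led in every library. Grik5 made up 74.7 ± 3.11% of the summed FPKM of the 5 Grik genes in Ctr, 74.9 ± 1.35% in Ref and 71.7 ± 4.64% in Alt (SD, n = 3, 2 and 2). Grik3 held 13.9 ± 2.42%, 13.7 ± 0.22% and 16.3 ± 4.98% in the same order. Grik4 and Grik2 each held between 4.04 and 6.33% in every library, and Grik1 held 0.61 to 1.08%. The 5 genes summed to 80.2 ± 5.31 FPKM in Ctr libraries, 80.9 ± 11.4 in Ref libraries and 84.2 ± 10.5 in Alt libraries. The Grik1 share was lower in both Alt libraries, at 0.61 and 0.78%, than in any Ctr or Ref library. These shares are a description with no test.

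**Figure D1:**
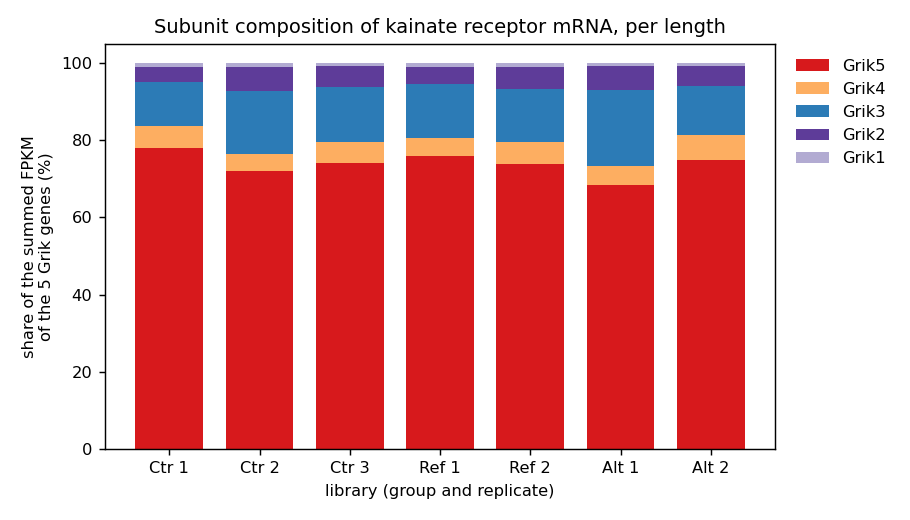
Stacked bars give the share of each Grik gene in the summed FPKM of the 5 Grik genes (y axis, %) for each of the 7 libraries (x axis). Grik5 takes 68.5 to 78.1% in every library, and Alt replicate 1 has the largest Grik3 share at 19.8%.

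Between groups, levels were compared as CPM (counts scaled to the library total) normalized by edgeR's TMM method, which are not divided by length. Genes were tested with edgeR's quasi-likelihood test across all 17254 genes that passed the filter, and p-values were adjusted over all of them by the Benjamini-Hochberg method. The labels do not say whether replicates were separate mice, so p-values measure only the spread between these samples. In tissue, fewer cells of a type and less RNA per cell cannot be told apart. None of the 7 members passed an adjusted p of 0.05 in Alt versus Ctr, Alt versus Ref, Ref versus Ctr, or the trend over the 3 groups. The background was 0% of all genes in Alt versus Ctr, in Ref versus Ctr and in the trend, and 0.0058% (1 gene) in Alt versus Ref.

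At an unadjusted p under 0.05, 0 of 7 members were called in Alt versus Ctr, where 19.8% of all genes were, 9.44% higher and 10.3% lower. In Alt versus Ref 2 members were called, Neto1 and Neto2, both higher in Alt, against 15.5% of all genes, 6.71% higher and 8.83% lower. None were called in Ref versus Ctr, against 3.14% of all genes, 2.19% higher and 0.945% lower. The trend also called no member, against 16.7% of all genes, 8.84% higher and 7.89% lower. DESeq2 called 2 members at that level in Alt versus Ctr, Grik3 and Neto1, beside 3643 of all 17254 genes. In Alt versus Ref it called 2 members, beside 2873 of all genes. The median log2 change of the members was 0.27 in Alt versus Ctr, 0.35 in Alt versus Ref and 0.01 in Ref versus Ctr, beside -0.03, -0.04 and 0.01 over all genes tested. Without Alt replicate 1 the members' median was 0.05 in Alt versus Ctr and 0.02 in Alt versus Ref, beside -0.03 and -0.02 over all genes, and with the length correction it was 0.15 and 0.19, beside 0.04 and 0.05. The comparisons with Alt share the same Alt libraries and are not independent.

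**Figure D2:**
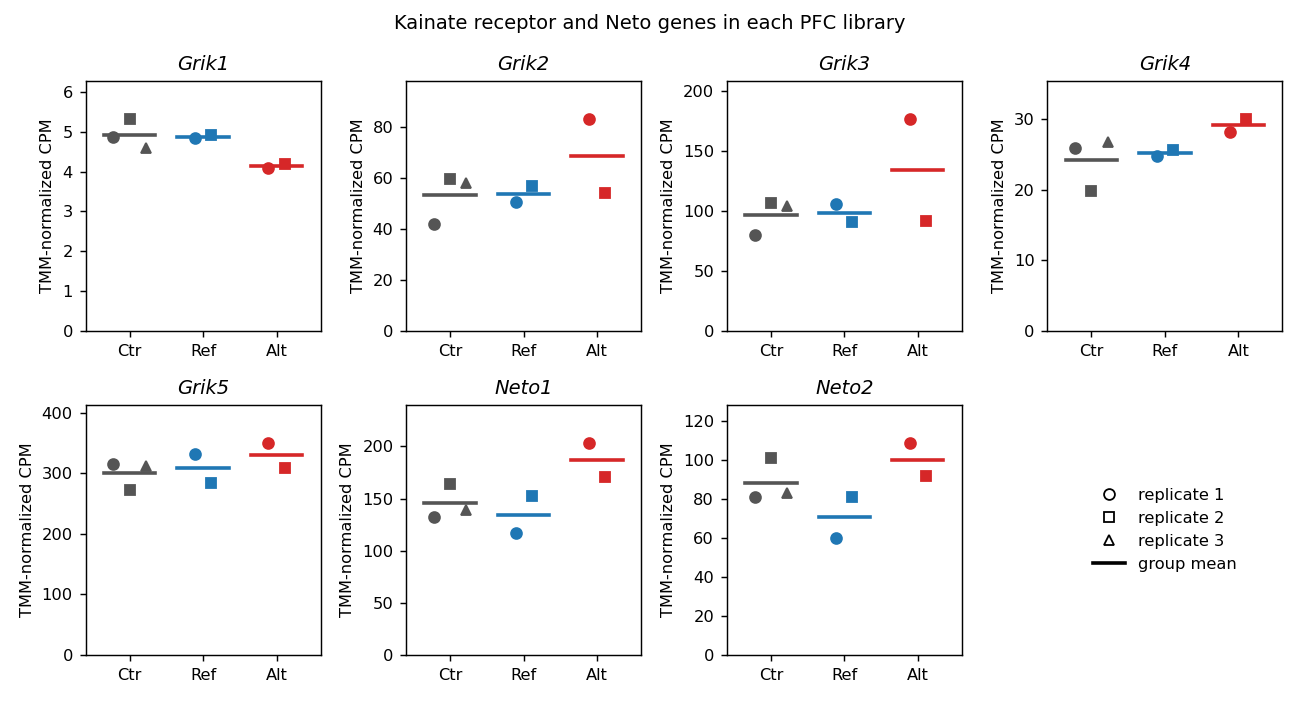
Each panel gives the TMM-normalized CPM of a member (y axis, from 0) in the Ctr, Ref and Alt libraries, with marker shape for the replicate and a line for the group mean. The Alt libraries lie apart from all other libraries for Grik1 (lower), Grik4 and Neto1 (higher), and Alt replicate 1 alone is high for Grik2 and Grik3.

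Grik3 (ENSMUSG00000001985.10, chromosome 4, positions 125384493 to 125607966, plus strand) encodes GluK3, a subunit noted for its low glutamate affinity and presynaptic action. Its CPM was 80.1, 106 and 104 in Ctr, 106 and 90.9 in Ref, and 176 and 91.7 in Alt. Alt replicate 1 was the highest of the 7 libraries, while Alt replicate 2 lay inside the Ctr range. The fitted log2 change in Alt versus Ctr was 0.47 (SE 0.24), a 1.38-fold difference with a 95% interval from 0.96 to 1.99 and an edgeR adjusted p of 0.30. Leaving out Alt replicate 1 turned it to -0.08, and leaving out Alt replicate 2 gave 0.87 with an edgeR adjusted p of 0.00575. Alt versus Ref followed the same libraries, with 0.45 (SE 0.26) in all, -0.09 without Alt replicate 1 and 0.85 without Alt replicate 2, where the edgeR adjusted p was 0.0124.

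Grik2 (ENSMUSG00000056073.17, chromosome 10, positions 48970929 to 49664862, minus strand) encodes GluK2, the principal low-affinity subunit of forebrain pyramidal cells. Its CPM was 42.0, 59.7 and 58.2 in Ctr, 50.8 and 56.7 in Ref, and 83.0 and 54.1 in Alt. As for Grik3, Alt replicate 1 was above every other library and Alt replicate 2 was not. The fitted log2 change in Alt versus Ctr was 0.36 (SE 0.21), a 1.29-fold difference with an edgeR adjusted p of 0.363. With 13246 bases Grik2 is the longest member, and after a correction of each library for gene length the log2 change was -0.02. With Alt replicate 1 left out the value was 0.02, and with Alt replicate 2 left out 0.64, where the edgeR adjusted p was 0.0433.

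Grik1 (ENSMUSG00000022935.17, chromosome 16, positions 87692788 to 88087153, minus strand) encodes GluK1, which in the cortex is best known from inhibitory interneurons. Its CPM was 4.86, 5.31 and 4.59 in Ctr, 4.83 and 4.91 in Ref, and 4.09 and 4.18 in Alt. Both Alt libraries were below all Ctr and Ref libraries, as were those of 13.1% of all genes tested. The counts behind these values were 63 and 75 in Alt against 95 to 108 in the others. The fitted log2 change was -0.25 (SE 0.33) in Alt versus Ctr, a ratio of 0.841 with a 95% interval from 0.511 to 1.38 and an edgeR adjusted p of 0.727. Permuting these libraries exactly, on both sides, gave p = 0.1, the smallest value that 3 against 2 libraries allow. The same exact test gave p = 0.2 for Grik4 and for Neto1, whose Alt libraries also lay apart from Ctr, and at least 0.3 for the other 4 members. The summed level of 7 inhibitory neuron markers was also lower in Alt, at 76.9 to 115 FPKM against 147 to 178 in Ctr and 153 to 170 in Ref. Of those markers 6 of 7 had a negative log2 change in Alt versus Ctr and 3 were lower at an unadjusted p under 0.05 in edgeR, and none was at 0 in any library. Over all genes tested 52.1% had a negative log2 change in that comparison and 10.3% were lower at that p. Sst held much of the marker sum, at 78.9, 66.1 and 102 FPKM in Ctr, 84.1 and 70.8 in Ref, and 23.0 and 44.8 in Alt. The log2 changes of Gad2 and Slc32a1 in Alt versus Ctr were 0.16 and -0.01. Sst and Pvalb, both among the markers called, are short, at 721 and 1041 bases, and no length-corrected value is given for these markers. The part of these markers in the Grik1 values was not tested.

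**Figure D3:**
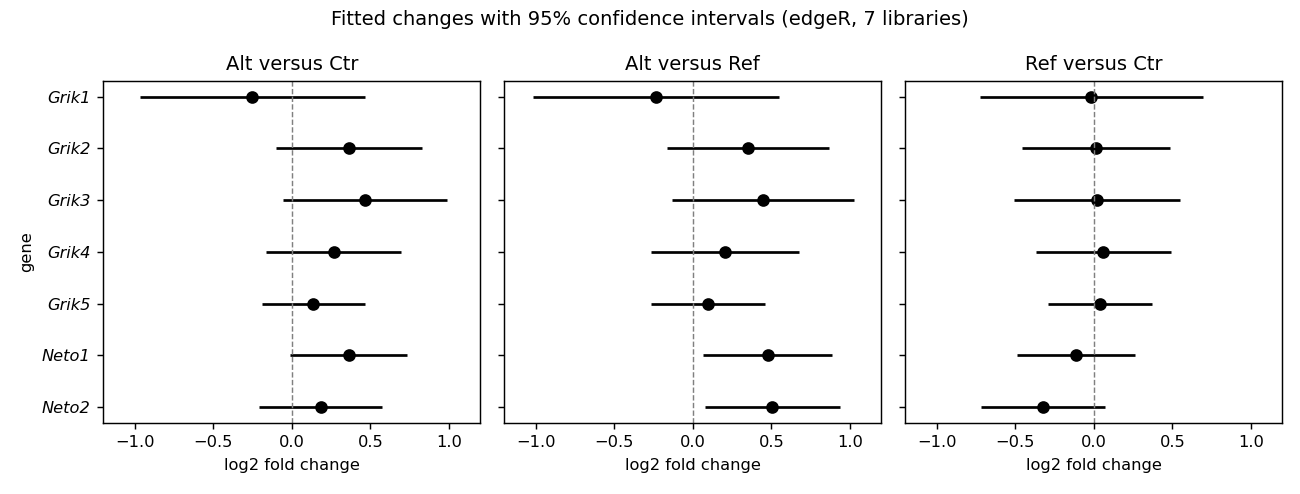
Points give the fitted log2 fold change of each member (x axis) in Alt versus Ctr, Alt versus Ref and Ref versus Ctr, and lines its 95% confidence interval from edgeR's fit of 7 libraries. Neto1 and Neto2 in Alt versus Ref, from 0.06 to 0.89 and from 0.07 to 0.94, are the only intervals that do not cross 0.

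Among the high-affinity subunits, Grik4 (ENSMUSG00000032017.15, chromosome 9, positions 42429431 to 42855789, minus strand) encodes GluK4. Its CPM was 25.9, 19.9 and 26.8 in Ctr, 24.8 and 25.6 in Ref, and 28.2 and 30.0 in Alt. Both Alt libraries were above all Ctr and Ref libraries, as were those of 11.6% of all genes. The fitted log2 change in Alt versus Ctr was 0.27 (SE 0.20), with a 95% interval from -0.16 to 0.69 and an edgeR adjusted p of 0.482. Leaving out each library in turn gave values from 0.14, without Ctr replicate 2, to 0.35, and the length correction gave 0.22.

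Grik5 (ENSMUSG00000003378.10, chromosome 7, positions 24709274 to 24771771, minus strand) encodes GluK5, the high-affinity partner of GluK2 in many neurons. Its CPM was 316, 272 and 312 in Ctr, 333 and 285 in Ref, and 351 and 310 in Alt. The groups overlapped in all comparisons. The fitted log2 change in Alt versus Ctr was 0.14 (SE 0.15), and its 95% interval of 0.876 to 1.38 as a fold leaves room for a difference of either sign. This was the narrowest interval of the 7 members. The log2 change was 0.05 when Alt replicate 1 was left out and 0.22 when Alt replicate 2 was.

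In each pairwise comparison the lowest p-value of the 7 members was that of an auxiliary subunit. Neto1 (ENSMUSG00000050321.4, chromosome 18, positions 86413077 to 86524843, plus strand) had a CPM of 132, 164 and 139 in Ctr, 117 and 152 in Ref, and 203 and 170 in Alt. Both Alt libraries were above all others. The fitted log2 change was 0.36 (SE 0.17, edgeR adjusted p 0.263) in Alt versus Ctr and 0.48 (SE 0.19, edgeR adjusted p 0.274) in Alt versus Ref. The Alt versus Ref value was 0.35 without Alt replicate 1, 0.28 without Ref replicate 1 and 0.34 after the length correction. Its unadjusted edgeR p of 0.0273 became 0.0407 with the length correction, 0.0539 with the replicate number as a block, 0.102 without Alt replicate 1 and 0.249 without Ref replicate 1. In Alt versus Ctr the log2 change was 0.19 with the length correction and 0.23 without Alt replicate 1.

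Neto2 (ENSMUSG00000036902.12, chromosome 8, positions 86363217 to 86427553, minus strand) had a CPM of 80.6, 101 and 82.7 in Ctr, 59.8 and 81.0 in Ref, and 109 and 91.4 in Alt. Both Alt libraries were above both Ref libraries but overlapped with Ctr, and Ref replicate 1 was the lowest of the 7 libraries. In Alt versus Ref the log2 change was 0.51 (SE 0.20, edgeR adjusted p 0.268), and in Alt versus Ctr it was 0.18 (SE 0.18, edgeR adjusted p 0.613). The Alt versus Ctr value was 0.06 with Alt replicate 1 left out and 0.30 with Alt replicate 2 left out. In Ref versus Ctr it was -0.32 (SE 0.18), the largest difference of any member in that comparison, with an unadjusted edgeR p of 0.101. That difference was -0.12 without Ref replicate 1 and -0.56 without Ref replicate 2, where the unadjusted edgeR p was 0.0307. The Alt versus Ref value was 0.39 without Alt replicate 1 and 0.29 without Ref replicate 1, with unadjusted edgeR p of 0.0932 and 0.250. The summed level of 6 oligodendrocyte markers was 641 to 753 FPKM in Ref against 380 to 535 in Ctr and 348 to 423 in Alt, with none at 0. Sums were also highest in Ref for 6 astrocyte markers, at 416 to 482 against 351 to 377 in Ctr and 272 to 346 in Alt. For 4 oligodendrocyte precursor markers they were 97.2 to 116, 70.2 to 93.4 and 68.9 to 73.2 in the same order. The sum of 5 microglia markers overlapped between Ref and Ctr. The part of these markers in the Neto values was not tested.

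The ratio of Neto1 to Neto2 within a library moved less between replicates than either gene did. The FPKM ratio was 1.204, 1.196 and 1.236 in the Ctr libraries, 1.432 and 1.379 in those of Ref, and 1.375 and 1.368 in those of Alt. All Ref and Alt libraries lay above the 3 Ctr libraries. Of the 21 pairs of members, this was the only pair whose ratio kept Ctr apart from all Ref and Alt libraries, while 5 pairs, all with Grik1, kept Alt apart from all Ctr and Ref libraries. These counts have no share over other gene pairs beside them. The 5 pairs share Grik1, whose own CPM was lower in both Alt libraries than in all others, as for 13.1% of all genes. The Neto pair was chosen for this description after the values were seen, so no test is given. Summed over both Neto genes and divided by the summed Grik level, their level gave a ratio of 0.411 ± 0.071 for Ctr, 0.351 ± 0.10 for Ref and 0.433 ± 0.012 for Alt. Both Alt libraries, at 0.424 and 0.442, lay above both Ref libraries, at 0.280 and 0.422, and inside the Ctr range of 0.370 to 0.493.

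Without an overlap between Alt and Ctr, 2 members were higher in Alt (Grik4 and Neto1) and 1 lower (Grik1), where 16.8% of all genes were higher and 18.1% lower. Between Alt and Ref, 3 members were higher (Grik4, Neto1 and Neto2) and 1 lower (Grik1), against 21.6% and 26.1% of all genes. No member separated Ref from Ctr, where 12.4% of all genes were higher and 10.5% lower. In the trend with Ctr, Ref and Alt scored 0, 1 and 2, the smallest unadjusted edgeR p was 0.0842, for Grik3.

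**Figure D4:**
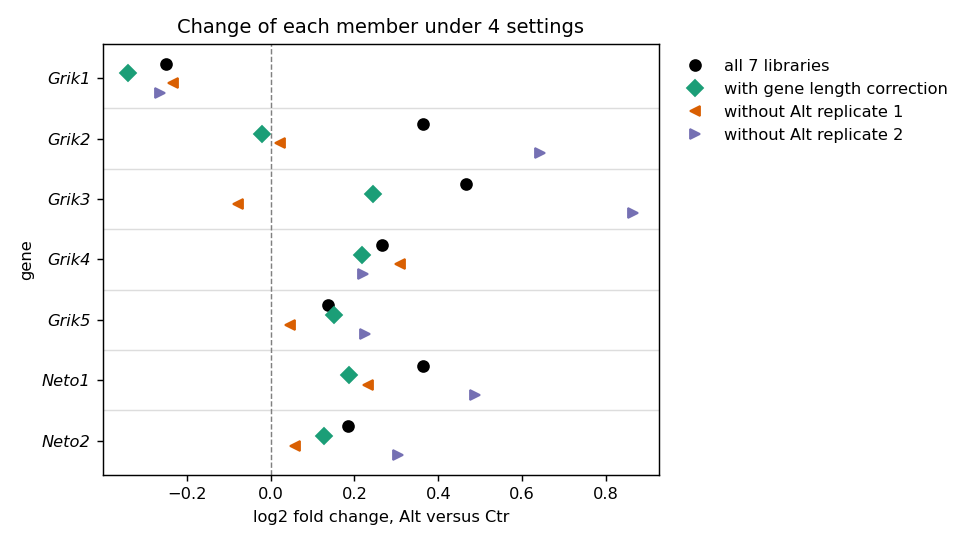
The fitted log2 fold change of each member in Alt versus Ctr (x axis) is shown with all 7 libraries, with the gene length correction, and without each Alt library. Grik2 and Grik3 span from near or below 0 without Alt replicate 1 to 0.64 and 0.87 without Alt replicate 2, whereas the other 5 members keep their sign under these settings.

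Over the 7 libraries, Neto1 and Neto2 varied together, with a Pearson r of log2 CPM of 0.92, or 0.90 without Alt replicate 1. Grik2 and Grik3 had an r of 0.92, which was 0.73 without Alt replicate 1, and Grik1 and Grik4 had an r of -0.89. These values are descriptions over 7 libraries that share their depth and length effects between genes. By the same measure, the genes closest to Neto1 among 14491 protein-coding genes were Cltc, the clathrin heavy chain (r 0.996), and Cadm2, a synaptic adhesion gene (r 0.995). Those closest to Neto2 were Dnm1l, a dynamin-related fission gene (r 0.996), and Kcnd2, a potassium channel (r 0.994). Lrp1b and Trp53bp1 were closest to Grik2, Sstr1 and Zkscan16 to Grik3, and Tent5a and Syngr2 to Grik1. For Grik4 they were 9530077C05Rik and Pof1b, and for Grik5 Adgrg3 and Cadm3, of which Pof1b and Adgrg3 had under 2 CPM in every library. High values are common with 7 libraries, since 565 genes had an r over 0.9 with Neto1 and 42 with Grik5.

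Among the synaptic organizers known to act with kainate receptors, C1ql3 and Nrxn3 were higher in Alt versus Ctr and in Alt versus Ref at an unadjusted p under 0.05. C1ql3, a secreted protein related to the C1q-like factors that gather kainate receptors at synapses, had an FPKM of 58.2, 63.6 and 62.6 in Ctr, 48.2 and 46.1 in Ref, and 87.4 and 69.1 in Alt. Its 3 groups did not overlap, and its log2 change was 0.48 (SE 0.16, edgeR adjusted p 0.143) in Alt versus Ctr, 0.84 (SE 0.17, edgeR adjusted p 0.229) in Alt versus Ref and -0.36 (SE 0.16) in Ref versus Ctr. The presynaptic adhesion gene Nrxn3 had a log2 change of 0.56 (SE 0.19, edgeR adjusted p 0.150) in Alt versus Ctr and 0.75 (SE 0.21, edgeR adjusted p 0.233) in Alt versus Ref. C1ql2 had at most 20 counts in any library. Without Alt replicate 1, no gene of this list was called at that level in Alt versus Ctr, and 2 of 4 were called higher in Alt versus Ref. With the length correction 1 of 4 was called higher in Alt versus Ctr and 2 of 4 in Alt versus Ref. That correction took the list's median log2 change in Alt versus Ctr from 0.45 to 0.03. Of all genes, with all 7 libraries and no correction, 9.44% were called higher in Alt versus Ctr and 6.71% in Alt versus Ref.

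Of 13 scaffold and trafficking genes, Cask was higher in Alt versus Ctr at an unadjusted p under 0.05 and none was lower. Cask encodes a membrane-associated scaffold kinase, and its log2 change was 0.68 (SE 0.19, edgeR adjusted p 0.122). Cask and Klhl24 were higher in Alt versus Ref, at 0.63 and 0.50, and Vps35, a retromer subunit, was lower in Ref versus Ctr, at -0.41. Over all genes tested 9.44% were called higher and 10.3% lower in Alt versus Ctr, 6.71% higher in Alt versus Ref and 0.945% lower in Ref versus Ctr. The median log2 change of the list in Alt versus Ctr was 0.01. With the length correction 1 of the 13 was higher and 4 were lower in Alt versus Ctr. Without Alt replicate 1 none of the 13 was called in Alt versus Ctr or in Alt versus Ref. Of the genes for receptor modification and RNA editing, Prkca, Adarb1 and Camk2a were higher in Alt versus Ctr at an unadjusted p under 0.05, with log2 changes of 0.39, 0.37 and 0.32. Adarb1 encodes the enzyme that edits the pore site of GluK1 and GluK2 transcripts. None of these genes passed the adjusted p, and none was called in Alt versus Ref. Without Alt replicate 1 a single gene of this list was called higher in Alt versus Ctr, and likewise 1 with the length correction. That correction took the list's median log2 change in Alt versus Ctr from 0.20 to 0.06.

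Among the other glutamate receptor families, 4 of 6 NMDA receptor subunits tested were higher in Alt versus Ctr at an unadjusted p under 0.05, with log2 changes of 1.30 for Grin2b, 0.94 for Grin2a, 0.66 for Grin3a and 0.62 for Grin2c, and edgeR adjusted p from 0.120 to 0.143, where 9.44% of all genes were called higher. Grin3b was too low to test. Grin2b and Grin2a are long genes of 24842 and 17933 bases, and 3 of the 6 were higher after the length correction and 3 without Alt replicate 1. AMPA receptor subunits gave 0 of 4 in Alt versus Ctr and 1, Gria2, in Alt versus Ref, at 0.42, where 6.71% of all genes were called higher. Gria2 has 15548 bases, and it was not called without Alt replicate 1 or with the length correction. In Alt versus Ctr that correction gave 1 of the 4 AMPA receptor subunits as lower. The difference between families was not tested.

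**Figure D5:**
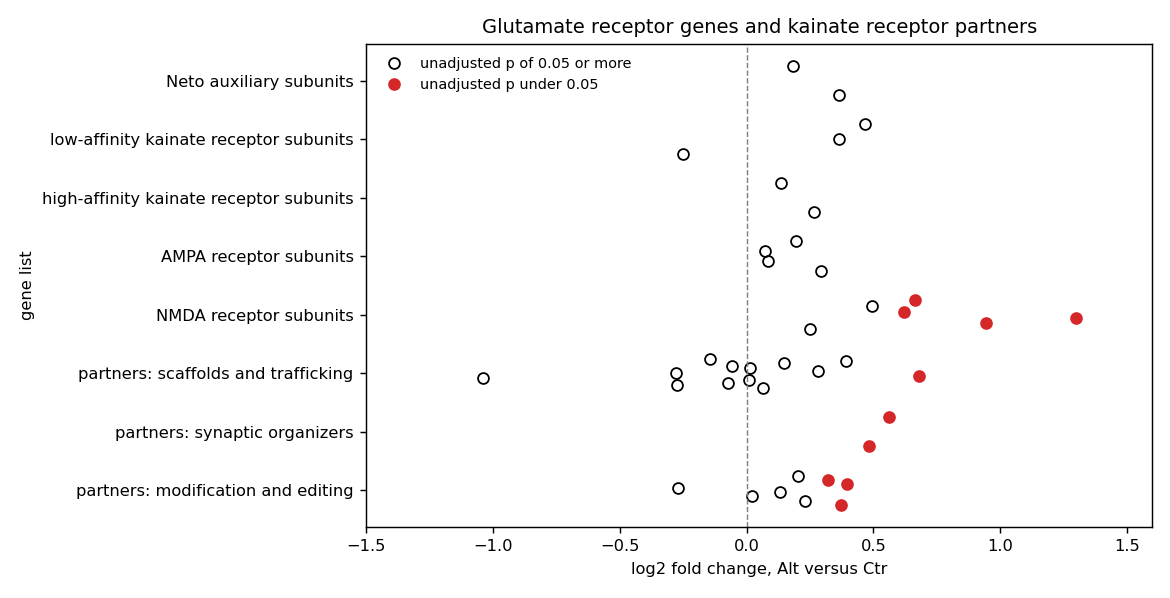
Each point is a gene, placed by its fitted log2 fold change in Alt versus Ctr (x axis) within its list (y axis), and filled red at an unadjusted p under 0.05. No kainate or Neto gene is filled, against 4 NMDA receptor subunits and 19.8% of all genes tested, and C1ql2, at -3.61 with at most 20 counts, lies outside the axis. List genes that are not reported here are not drawn.

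The genes that overlap a member's span held at most 20 counts in any library, and only Neto1 and Neto2 had an overlapping gene on the opposite strand, with at most 2 counts.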

How the data were processed

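The authors deposited 1 table of raw read counts per gene for 7 libraries, with TPM and FPKM values computed from them and the gene length they used. The deposited FPKM values were used for levels, shares, ratios and marker sums, the TPM values as an alternative for shares, and the counts for every test. The submitters' processing notes name STAR and featureCounts, without versions, and a human build. The mouse build, annotation and strand setting are not given in the sources used here, so coordinates stand as the table lists them. Groups and replicate numbers came from the labels.

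Counts were tested in R 4.3.3 with edgeR 4.0.16 (TMM, filterByExpr by group, glmQLFit, glmQLFTest) on all 7 libraries, and with DESeq2 1.42.0. The length correction removed a loess curve of span 0.3 per library. Log2 CPM used a prior count of 2. Depth was 16655697 to 20750857 counts. The exact permutation test used the absolute difference of mean log2 CPM, which was settled after a doubled-tail form had given p = 0.2 where it gives 0.1. Neither form reaches 0.05. Scripts were tested on simulated data. Members, gene lists and tests were chosen with earlier results of these data known. Named genes are all members, list genes at an unadjusted p of 0.05 in any comparison, and the 2 most correlated genes per member. Outside this rule, C1ql2 and Grin3b are named for their low counts, and Sst, Pvalb, Gad2 and Slc32a1 as inhibitory neuron markers. Some list genes that this rule names are not reported here.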

Additional observations from a re-analysis of the deposited data

How the results depend on the processing

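No member passed an adjusted p of 0.05 under any alternative except without Alt replicate 2, which left a single Alt library, assumed to vary like the other groups. There 2 members passed in Alt versus Ctr (log2 0.64 for Grik2 and 0.87 for Grik3) and 1 in Alt versus Ref (0.85 for Grik3), so leaving out each library gave 0 to 2 and 0 to 1. At an unadjusted p, leaving out each library gave 0 to 3 members in Alt versus Ctr, 0 to 4 in Alt versus Ref, 0 to 1 in Ref versus Ctr and 0 to 2 in the trend. In Alt versus Ctr the count of 0 became 2 with DESeq2, 2 without the low-count filter, and 1 each with RLE scaling, upper-quartile scaling, only protein-coding genes, and edgeR's newer quasi-likelihood method (legacy off, chosen after seeing the data). The planned legacy method is the default of this edgeR version and gave the main values. In the trend the count became 1 without the filter, and in Ref versus Ctr 1 with the length correction. In Alt versus Ref the count of 2 became 1 with only the groups compared and 3 without the filter, which added Grik3.

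The replicate block also gave 1 member in Alt versus Ref. Same-numbered libraries had correlations of -0.10 to 0.07 in their deviations from the group means. With 2 libraries each in Ref and Alt, those deviations mirror each other, so the values cannot decide whether the numbers pair the samples. The block did not change an adjusted call.

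Signs turned with the length correction for Grik2 in Alt versus Ctr (-0.020), Ref versus Ctr (-0.034) and the trend (-0.011), and for Grik3 in Ref versus Ctr (-0.011), and for Grik2 in Ref versus Ctr with only the groups compared (-0.0039). Leaving out each library, log2 values in Ref versus Ctr ran from -0.063 to 0.043 for Grik1, -0.13 to 0.10 for Grik2, -0.10 to 0.12 for Grik3, -0.064 to 0.14 for Grik4, -0.072 to 0.14 for Grik5, -0.32 to 0.071 for Neto1 and -0.56 to -0.12 for Neto2. In Alt versus Ref they ran from -0.089 to 0.85 for Grik3 and -0.0022 to 0.20 for Grik5, in Alt versus Ctr from -0.077 to 0.87 for Grik3, and in the trend from -0.028 to 0.36 for Grik3 and -0.036 to 0.15 for Neto2. Counts not divided by length put the Ctr shares at 11.1% for Grik2, 20.2% for Grik3 and 62.6% for Grik5.

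Over all genes, adjusted calls in Alt versus Ctr went from 0 to 1097 with DESeq2, 1484 without the filter and 3451 without Alt replicate 2. In Alt versus Ref they went from 1 to 429, 850 and 2708. In Ref versus Ctr DESeq2 gave 6 and no filter 40, and in the trend 596 and 1136. At an unadjusted p, all-gene counts ran over the alternatives from 1505 to 6259 in Alt versus Ctr (3414), 790 to 5451 in Alt versus Ref (2680), 236 to 1040 in Ref versus Ctr (541) and 1319 to 4367 in the trend (2888). Grik1, at 63 to 108 counts per library and the lowest member by count, has the widest intervals of the members.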
